A study of Mus musculus with 27 samples.

Results

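The 7 genes followed here are known targets that TGFβ switches on through its Smad proteins, and their levels were read across all cultures of a direct conversion experiment, in which mouse fibroblasts are driven towards induced cardiomyocytes (iCMs). They are Pmepa1, Nox4, Tgfbi, Ldlrad4, Tgif1, Bhlhe40 and Tsc22d1, 7 of the 19938 genes measured by a probe set with a single gene symbol. Each has a known place downstream of TGFβ and was read by 1 probe set. Total RNA was taken at Day 3 and hybridized to 27 Mouse Gene ST arrays from Affymetrix, with 3 cultures in each of 9 groups and 1 array for each culture. Cardiac fibroblasts (CFs) transduced with HNGMT, which stands for the cardiac transcription factors Gata4, Hand2, Tbx5, Mef2c and Nkx2.5, received 5 µM SB, 2 ng/mL TGFβ1 or the DMSO vehicle. Mouse embryonic fibroblasts (MEFs) with HNGMT received 0.5 µM SB, 2 ng/mL TGFβ1 or DMSO, and so did MEFs without the factors (0TF). The 0TF cultures are described as empty vector in one label and as untreated with factors in another. Every culture carried lentiviruses for rtTA and for a Troponin T-GCaMP reporter and received 2 µg/mL doxycycline. The CFs came from adult hearts and the MEFs from embryos without head, heart and viscera, and the treatments began before the factors were induced. The labels name independent biological replicates but no animals, so p-values measure the spread between these cultures.

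TGFβ ligands bind a pair of type I and type II receptor kinases, and the type I receptor phosphorylates Smad2 and Smad3, which join Smad4, enter the nucleus and bind short DNA motifs with partner factors. SB431542 (SB) blocks the type I receptor kinases Alk4, Alk5 and Alk7, so it also reaches activin and nodal signaling. In fibroblasts the pathway is best known for matrix production and the myofibroblast state. Among its targets, Pmepa1 and Ldlrad4 encode related membrane proteins that hold back Smad2 and Smad3, and Tgif1 encodes a nuclear Smad corepressor. All 3 act as negative feedback. Nox4 encodes an NADPH oxidase that makes hydrogen peroxide and takes part in myofibroblast activation. Tgfbi encodes a secreted matrix protein that binds collagens and integrins. Bhlhe40 encodes a basic helix-loop-helix repressor of the clock and hypoxia programs, and Tsc22d1 a leucine zipper protein first found as a TGFβ-stimulated transcript.

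Array medians ran from 7.36 to 7.43 in CFs and from 7.83 to 7.91 in MEFs on the log2 scale, so levels were not compared between the cell types. Hand2 was at 10.85 to 11.20 in HNGMT CFs and at 11.57 to 11.77 in HNGMT MEFs, against 8.77 to 9.30 in 0TF MEFs. The mouse probe sets of Nkx2.5, Gata4, Mef2c and Tbx5 showed no such rise in HNGMT over 0TF MEFs, and CFs without the factors were not among the groups. With DMSO, Mef2c averaged 9.9 in HNGMT and 10.47 in 0TF MEFs, and Tbx5 9.46 and 10.39, so both were lower with the factors. Gata4 averaged 8.77 in HNGMT and 8.42 in 0TF MEFs, and Nkx2.5 9.12 and 9.11. The median over the 19938 genes was 8.0 to 8.05 in CFs and 8.4 to 8.55 in MEFs, above the array medians over all probe sets. All 14 fibroblast markers were above this gene median in every group except CF HNGMT+TGFβ1, where 13 were. Endothelial markers were above it for 11 to 13 of 14 in the CF groups and for 1 to 4 of 14 in the MEF groups, so the cultures labelled CF also held a strong endothelial signal. CF HNGMT+SB replicate 3 stood apart. Its mean endothelial marker level was 9.23, against 10.94 and 10.96 in the other CF HNGMT+SB cultures, and its mean fibroblast marker level was 11.19, against 10.60 and 10.57. Its epicardial and mesothelial list was also higher, at 9.21, against 8.27 and 8.30. The cardiomyocyte list (8.48, against 9.04 and 9.06) and the smooth muscle and myofibroblast list (9.92, against 10.41 and 10.49) were lower. Calls that change when this culture is left out are given both ways. In RNA from whole cultures, fewer cells of a type and less RNA per cell cannot be told apart.

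A gene was called when its limma p, adjusted by Benjamini-Hochberg over all 19938 genes, was under 0.05 and its log2 fold change was at least 0.32 in either direction in CFs or 0.58, a fold of 1.5, in MEFs. With TGFβ1 in CFs, 5 of the 7 genes rose against DMSO (Pmepa1, Nox4, Tgfbi, Ldlrad4 and Bhlhe40), none fell, and Tgif1 and Tsc22d1 did not pass. Among all genes 3.11% rose and 2.20% fell in this comparison. Without CF HNGMT+SB replicate 3 in the fit, Tgif1 also rose, with 4.97% of all genes rising and 5.8% falling. In HNGMT MEFs none of the 7 passed both thresholds with TGFβ1, while 2.23% of all genes rose and 3.54% fell. At an unadjusted limma p under 0.05, 5 of the 7 were higher and 0 lower. The share of all genes at that unadjusted p was not counted, so how unusual this count is cannot be read from it. In 0TF MEFs 4 rose (Pmepa1, Nox4, Tgif1 and Bhlhe40) and 1 fell (Tgfbi), with 4.21% of all genes rising and 6.19% falling. The median log2 fold change of the 7 genes was 0.98 in CFs, 0.17 in HNGMT MEFs and 0.66 in 0TF MEFs, beside 0.00, 0.02 and 0.05 over all genes.

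With SB limma called no member in CFs, where 0.0451% of all genes rose and 0.196% fell. By the unadjusted limma p (under 0.05), 2 of the 7 genes were lower, with no share of all genes counted at that p. Pmepa1 and Ldlrad4 fell in CFs once SB replicate 3 was left out, with 1.03% of all genes falling. In HNGMT MEFs 3 fell (Pmepa1, Nox4 and Ldlrad4), against 0.431% of all genes, and none rose, against 0.391%. In 0TF MEFs 3 fell (Pmepa1, Ldlrad4 and Bhlhe40), against 1.13% of all genes, and none rose, against 1.26%. The median log2 fold change of the members was -0.03 in CFs, -0.39 in HNGMT MEFs and -0.37 in 0TF MEFs, beside 0.00, 0.01 and -0.01 over all genes. SB was given at 5 µM to CFs and at 0.5 µM to MEFs, so the effects of cell type and dose on these responses cannot be told apart. The SB and TGFβ1 responses of a background share its DMSO cultures.

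**Figure D1:**
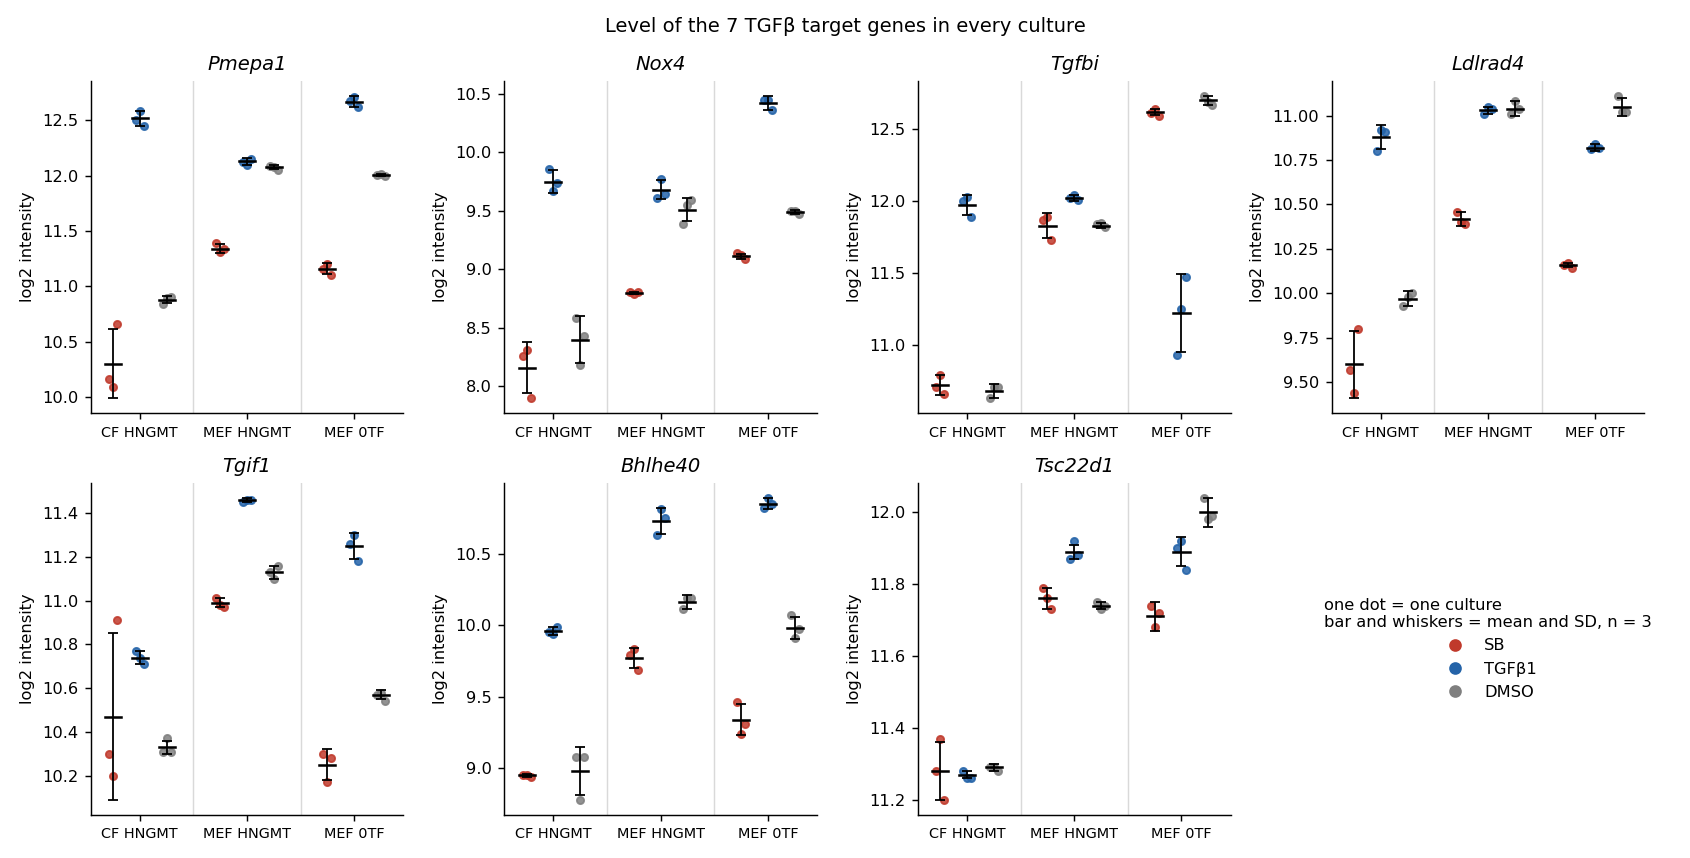
Log2 intensity (vertical axis) of each gene in every culture, by background along the horizontal axis and with SB, TGFβ1 and DMSO from left to right; dots are cultures and bars with whiskers are means and SD (n = 3). Pmepa1 with TGFβ1 reached 12.45 to 12.59 in CFs, well above the 10.84 to 10.90 with DMSO, and Tgfbi in 0TF MEFs was lowest with TGFβ1, at 10.93 to 11.47.

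Pmepa1 encodes a membrane protein that binds Smad2 and Smad3 and keeps them from the receptor. With TGFβ1 in CFs it had the highest log2 fold change of the 7 genes. Its log2 level in HNGMT CFs was 10.16, 10.09 and 10.66 with SB, 12.50, 12.59 and 12.45 with TGFβ1, and 10.84, 10.89 and 10.90 with DMSO. All SB cultures were below and all TGFβ1 cultures above the DMSO cultures, and the highest SB culture was replicate 3. The log2 fold change with TGFβ1 was 1.64 (standard error 0.13, adjusted p = 0.000327), a fold of 3.11 that ranked 38 from the top of all genes. With SB it was -0.58 (standard error 0.13, adjusted p = 0.232), and without replicate 3 it was -0.75 (standard error 0.05, adjusted p = 0.000336).
In HNGMT MEFs Pmepa1 was at 11.39, 11.31 and 11.34 with SB, at 12.12, 12.10 and 12.15 with TGFβ1, and at 12.09, 12.08 and 12.05 with DMSO. The SB cultures lay clearly below, while the TGFβ1 cultures lay barely above DMSO. The SB change was -0.73 (standard error 0.04, adjusted p = 5.77e-10), and the TGFβ1 change was 0.05 (95% interval -0.03 to 0.13, adjusted p = 0.343).
The 0TF MEFs gave 11.16, 11.20 and 11.10 with SB, 12.68, 12.71 and 12.62 with TGFβ1, and 12.01, 12.02 and 12.00 with DMSO. Here the 3 treatments were well separated, with SB lowest and TGFβ1 highest. Pmepa1 fell with SB by 0.85 on the log2 scale (adjusted p = 1.31e-11) and rose with TGFβ1 by 0.66 (adjusted p = 4.95e-11). With DMSO, HNGMT and 0TF MEFs differed in Pmepa1 by 0.07 (95% interval -0.01 to 0.14, adjusted p = 0.165).

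Ldlrad4, a relative of Pmepa1 that holds back the same Smads, fell with SB in both MEF backgrounds, and its call with TGFβ1 came in CFs. Its levels in HNGMT CFs were 9.57, 9.44 and 9.80 with SB, 10.80, 10.92 and 10.91 with TGFβ1, and 9.93, 9.98 and 10.00 with DMSO. The groups did not overlap, and SB replicate 3 was again the SB culture nearest to DMSO. The TGFβ1 change was 0.91 (standard error 0.09, adjusted p = 0.000744). The SB change was -0.37 (adjusted p = 0.248), and without replicate 3 it was -0.47 (adjusted p = 0.00432).
HNGMT MEFs had 10.46, 10.40 and 10.39 with SB, 11.01, 11.05 and 11.04 with TGFβ1, and 11.01, 11.08 and 11.04 with DMSO. Only the SB cultures stood away from DMSO, and the TGFβ1 cultures overlapped it. Ldlrad4 fell with SB by 0.63 (adjusted p = 1.88e-09), and with TGFβ1 the change was -0.01 (95% interval -0.09 to 0.06, adjusted p = 0.827).
In 0TF MEFs the levels were 10.16, 10.17 and 10.14 with SB, 10.81, 10.84 and 10.82 with TGFβ1, and 11.11, 11.02 and 11.02 with DMSO. Both treatments lay below DMSO. The SB change of -0.89 (standard error 0.03, adjusted p = 3.24e-12) was the largest SB response among the 7 genes in any background. The TGFβ1 change of -0.23 (adjusted p = 2.43e-05) was in the same direction and under the fold threshold.

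Tgif1, the nuclear corepressor, rose with TGFβ1 in 0TF MEFs, and in CFs it was called in some fits and not in others. Its levels in HNGMT CFs were 10.30, 10.20 and 10.91 with SB, 10.77, 10.74 and 10.71 with TGFβ1, and 10.31, 10.37 and 10.31 with DMSO. SB replicate 3 was above every TGFβ1 culture, while the other SB cultures were at or below DMSO. The TGFβ1 change was 0.41 (standard error 0.16, adjusted p = 0.175) with that culture in the fit and 0.41 (standard error 0.04, adjusted p = 0.000184) without it. With that culture kept, Tgif1 was also called in CFs when all 27 arrays were fitted together (adjusted p = 0.00514) and when arrays were weighted (adjusted p = 0.000183). The SB change was 0.14 (adjusted p = 0.976), and -0.08 (adjusted p = 0.635) without replicate 3.
HNGMT MEFs had 11.01, 10.98 and 10.97 with SB, 11.45, 11.46 and 11.46 with TGFβ1, and 11.13, 11.10 and 11.16 with DMSO. The 3 treatments did not overlap. Their distances from DMSO were -0.14 with SB (adjusted p = 0.0315) and 0.32 with TGFβ1 (adjusted p = 2.9e-06), both under the fold threshold.
In 0TF MEFs Tgif1 was at 10.30, 10.17 and 10.28 with SB, at 11.26, 11.30 and 11.18 with TGFβ1, and at 10.57, 10.58 and 10.54 with DMSO. It rose with TGFβ1 by 0.68 (adjusted p = 9.11e-11). The SB change was -0.32 (adjusted p = 8.75e-06), under the fold threshold. With DMSO alone Tgif1 was higher in HNGMT than in 0TF MEFs by 0.57 (standard error 0.04, adjusted p = 1.36e-09), a fold of 1.48, just short of 1.5.

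Nox4, the hydrogen peroxide-producing oxidase, had levels in HNGMT CFs of 8.26, 8.31 and 7.90 with SB, 9.86, 9.67 and 9.74 with TGFβ1, and 8.58, 8.18 and 8.43 with DMSO. The TGFβ1 cultures were apart from all others, and the SB and DMSO cultures overlapped. Nox4 rose with TGFβ1 by 1.36 (standard error 0.13, adjusted p = 0.000769), a fold of 2.56. With SB the change was -0.24 (95% interval -0.54 to 0.06, adjusted p = 0.931), and without replicate 3, the lowest SB culture, it was -0.11 (adjusted p = 0.86).
In HNGMT MEFs it was at 8.81, 8.79 and 8.81 with SB, at 9.61, 9.77 and 9.64 with TGFβ1, and at 9.39, 9.55 and 9.59 with DMSO. SB cultures were all below DMSO, and TGFβ1 cultures lay just above it. Nox4 fell with SB by 0.71 (standard error 0.05, adjusted p = 3.34e-08), and with TGFβ1 the change was 0.17 (adjusted p = 0.0133), under the fold threshold.
The 0TF MEFs had 9.14, 9.12 and 9.09 with SB, 10.45, 10.45 and 10.36 with TGFβ1, and 9.50, 9.50 and 9.47 with DMSO. Again no groups overlapped. The TGFβ1 change of 0.93 (adjusted p = 3.18e-11) was called, and the SB change of -0.37 (adjusted p = 1.99e-05) was under the fold threshold.

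Tgfbi, the secreted matrix protein, rose with TGFβ1 in CFs and fell with it in 0TF MEFs; the difference between these backgrounds was not tested. Its levels in HNGMT CFs were 10.71, 10.79 and 10.66 with SB, 12.00, 12.03 and 11.89 with TGFβ1, and 10.63, 10.71 and 10.71 with DMSO. SB and DMSO cultures overlapped and the TGFβ1 cultures were far above both. Tgfbi rose with TGFβ1 by 1.29 (standard error 0.05, adjusted p = 1.66e-05). The SB change was 0.04 (95% interval -0.09 to 0.16, adjusted p = 0.979).
HNGMT MEFs had 11.87, 11.89 and 11.73 with SB, 12.02, 12.04 and 12.01 with TGFβ1, and 11.84, 11.85 and 11.82 with DMSO. The SB cultures overlapped DMSO and the TGFβ1 cultures were slightly above. The TGFβ1 change was 0.19 (standard error 0.09, adjusted p = 0.103), and the SB change was 0.00 (95% interval -0.18 to 0.18, adjusted p = 0.999).
In 0TF MEFs Tgfbi was at 12.61, 12.64 and 12.59 with SB, at 10.93, 11.25 and 11.47 with TGFβ1, and at 12.73, 12.69 and 12.67 with DMSO. The TGFβ1 cultures were lowest and spread over the widest range of any of the 7 genes in MEFs (SD 0.27). Tgfbi fell with TGFβ1 by 1.48 (standard error 0.09, adjusted p = 1.2e-10), a fold of 2.79. With SB the change was -0.08 (adjusted p = 0.66). With DMSO, HNGMT MEFs averaged 11.83 ± 0.02 and 0TF MEFs 12.70 ± 0.03 (SD, n = 3 each), and Tgfbi was the only one of the 7 genes called lower with the factors, by 0.87 (adjusted p = 1.85e-07), in a comparison where 4.56% of all genes rose and 4.51% fell. Under the fold threshold in that comparison were Tsc22d1, with -0.26 (adjusted p = 4.53e-06), and Bhlhe40, with 0.18 (adjusted p = 0.0204).

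Bhlhe40, the helix-loop-helix repressor, had levels in HNGMT CFs of 8.95, 8.95 and 8.94 with SB, 9.95, 9.94 and 9.99 with TGFβ1, and 9.08, 8.78 and 9.08 with DMSO. The SB cultures lay within the DMSO range and the TGFβ1 cultures were above it. It rose with TGFβ1 by 0.98 (standard error 0.08, adjusted p = 0.000268), and the SB change was -0.03 (95% interval -0.21 to 0.15, adjusted p = 0.988).
HNGMT MEFs had 9.79, 9.83 and 9.69 with SB, 10.63, 10.81 and 10.75 with TGFβ1, and 10.11, 10.19 and 10.19 with DMSO. The treatments were apart, with SB below and TGFβ1 above DMSO. The TGFβ1 change was 0.57 (standard error 0.06, adjusted p = 5.59e-07), a fold of 1.48 just under the threshold. Without TGFβ1 replicate 1, the lowest of its group, it was 0.61 (adjusted p = 6.36e-07) and passed. The SB change was -0.39 (adjusted p = 0.00026), a fold of 1.31.
In 0TF MEFs the gene was at 9.46, 9.24 and 9.31 with SB, at 10.82, 10.89 and 10.85 with TGFβ1, and at 10.07, 9.91 and 9.97 with DMSO. No cultures overlapped between the treatments. Bhlhe40 fell with SB by 0.65 (adjusted p = 2.52e-07) and rose with TGFβ1 by 0.87 (adjusted p = 9.96e-10).

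Tsc22d1 was not called in any response. Its levels in HNGMT CFs were 11.28, 11.37 and 11.20 with SB, 11.28, 11.26 and 11.26 with TGFβ1, and 11.29, 11.29 and 11.28 with DMSO, and all 3 groups overlapped. The changes there were 0.00 with SB (95% interval -0.11 to 0.10, adjusted p = 0.999) and -0.02 with TGFβ1 (95% interval -0.12 to 0.09, adjusted p = 0.9). HNGMT MEFs averaged 11.76 ± 0.03 with SB, 11.89 ± 0.02 with TGFβ1 and 11.74 ± 0.01 with DMSO (SD, n = 3 each), and the TGFβ1 change was 0.15 (adjusted p = 0.00173). In 0TF MEFs both treatments were below DMSO, at 11.71 ± 0.04 with SB and 11.89 ± 0.04 with TGFβ1, against 12.00 ± 0.04 with DMSO (SD, n = 3 each). Those changes were -0.29 with SB (adjusted p = 4.98e-06) and -0.12 with TGFβ1 (adjusted p = 0.0087), a fold of 1.22 and 1.08.

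**Figure D2:**
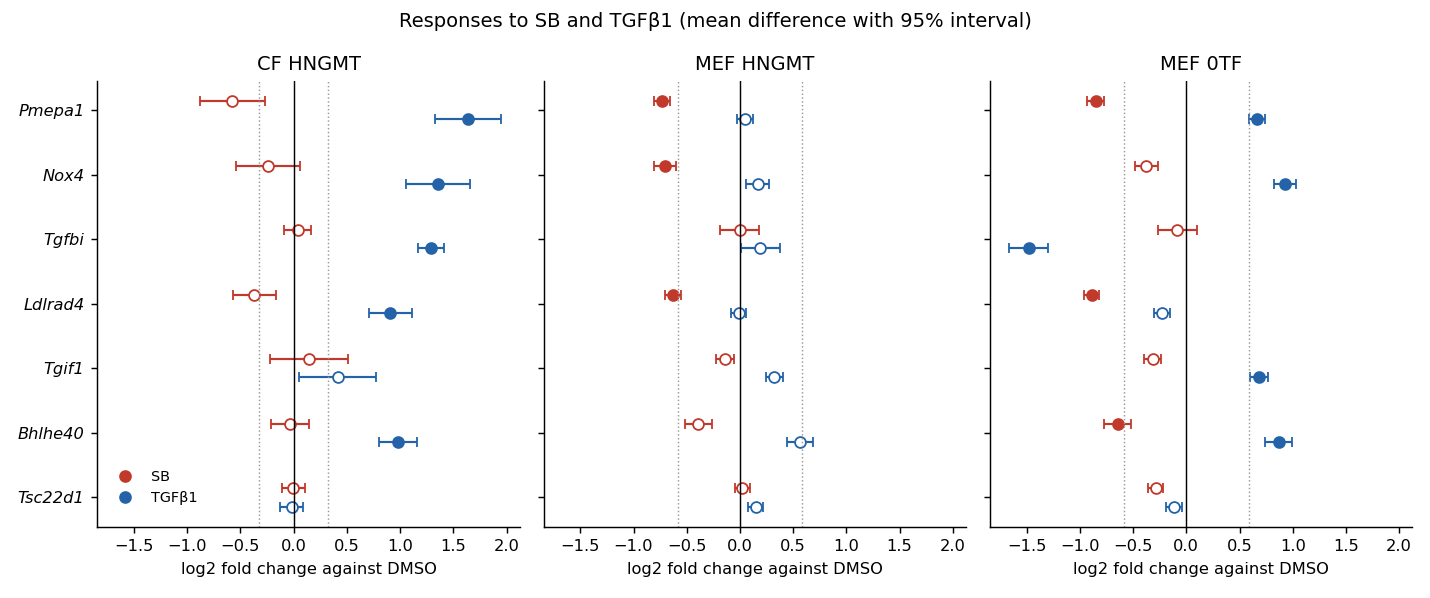
Log2 fold change against DMSO (horizontal axis) of each gene with SB and TGFβ1 in the 3 backgrounds, with 95% intervals; filled points passed both thresholds, open points did not, and dotted lines mark the fold threshold of each cell type, at log2 values of 0.32 in CFs and 0.58 in MEFs. With TGFβ1, Pmepa1 was at 1.64 in CFs, 0.05 in HNGMT MEFs and 0.66 in 0TF MEFs, while Tgfbi was at 1.29, 0.19 and -1.48.

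Whether the responses differed between backgrounds was tested directly as a difference of log2 fold changes, called at an adjusted p under 0.05 and a fold of at least 1.5. The TGFβ1 response of 4 genes was larger in CFs than in HNGMT MEFs, in a test where 2.68% of all genes had a higher and 1.70% a lower response in CFs. The differences were 1.59 for Pmepa1 (standard error 0.12, adjusted p = 3.43e-09), 1.19 for Nox4 (adjusted p = 5.25e-07), 1.10 for Tgfbi (adjusted p = 3.85e-07) and 0.92 for Ldlrad4 (adjusted p = 3.45e-08). Bhlhe40 had 0.42 (adjusted p = 0.00394) and Tsc22d1 -0.17 (adjusted p = 0.0251), both under the fold threshold. For Tgif1 the difference was 0.09 (95% interval -0.21 to 0.39, adjusted p = 0.796). TGFβ1 was given at 2 ng/mL to both cell types. Marker levels moved along with this response: in CFs the endothelial list averaged 10.10 to 10.13 with TGFβ1 and 10.72 to 10.76 with DMSO, the smooth muscle and myofibroblast list 11.07 to 11.09 with TGFβ1 and 10.67 to 10.71 with DMSO, and the fibroblast list 10.75 to 10.95 with TGFβ1 and 10.65 to 10.74 with DMSO. The cardiomyocyte list in CFs averaged 8.75 to 8.80 with TGFβ1 and 9.10 to 9.13 with DMSO. In HNGMT MEFs the fibroblast list averaged 11.92 to 11.98 with TGFβ1 and 12.44 to 12.46 with DMSO, so it lay lower with TGFβ1 there and slightly higher in CFs. The endothelial list in HNGMT MEFs averaged 7.22 to 7.37 with TGFβ1 and 7.47 to 7.54 with DMSO, and the cardiomyocyte list 9.03 to 9.06 with TGFβ1 and 9.18 to 9.29 with DMSO. Their part in the responses of the 7 genes was not tested.

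Within MEFs the factors changed the TGFβ1 response of 3 genes at the fold threshold, where 4.68% of all genes had a higher and 2.77% a lower response with HNGMT than with 0TF. Pmepa1 and Nox4 responded less with HNGMT, with differences of -0.61 (standard error 0.05, adjusted p = 5.06e-08) and -0.77 (standard error 0.07, adjusted p = 1.45e-07). For Tgfbi, which fell with TGFβ1 in 0TF MEFs, the difference was 1.67 (standard error 0.12, adjusted p = 9.2e-09). The other 4 genes passed the adjusted p but not the fold, with -0.36 for Tgif1, -0.30 for Bhlhe40, 0.21 for Ldlrad4 and 0.27 for Tsc22d1. The share of all genes passing the adjusted p alone was not counted. The smooth muscle and myofibroblast markers, which TGFβ also induces, averaged 10.77 to 10.82 with TGFβ1 and 10.66 to 10.74 with DMSO in HNGMT MEFs. In 0TF MEFs the same list averaged 10.16 to 10.29 with TGFβ1 and 9.38 to 9.48 with DMSO. The fibroblast list, lower with TGFβ1 in HNGMT MEFs, was also lower in 0TF MEFs, at 12.59 to 12.68 with TGFβ1 and 12.91 to 12.97 with DMSO. The adipocyte list averaged 7.56 to 7.68 with TGFβ1 and 7.89 to 7.98 with DMSO in HNGMT MEFs, and 7.59 to 7.66 with TGFβ1 and 8.18 to 8.20 with DMSO in 0TF MEFs. The part of these lists in the TGFβ1 responses was not tested.

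For the SB response with HNGMT against 0TF, 0 of the 7 genes reached the fold threshold, where 0.893% of all genes had a higher and 1.06% a lower response. At an adjusted p under 0.05 in limma, the difference was -0.33 for Nox4 (adjusted p = 0.00441), 0.26 for Ldlrad4 (adjusted p = 0.00156) and 0.31 for Tsc22d1 (adjusted p = 0.000251). At an unadjusted p under 0.05, 5 of the 7 differences were above 0 and 1 below. The share of all genes passing either p without the fold threshold was not counted. The adipocyte list averaged 10.76 to 10.82 with SB and 8.18 to 8.20 with DMSO in 0TF MEFs, and 8.21 to 8.33 with SB and 7.89 to 7.98 with DMSO in HNGMT MEFs. The cardiomyocyte list averaged 9.57 to 10.03 with SB and 9.18 to 9.29 with DMSO in HNGMT MEFs. The part of these lists in the SB responses was not tested. Between CFs and HNGMT MEFs, 0 of the 7 SB responses passed in limma, where 0.266% of all genes had a higher and 0.346% a lower response. By the unadjusted limma p (under 0.05), 3 of the 7 differences were above 0, again with no share of all genes counted. Nox4 had the largest difference, 0.47 (95% interval 0.21 to 0.73, adjusted p = 0.0633). Leaving out CF HNGMT+SB replicate 3 made it 0.60 (adjusted p = 0.00122), which passed. In that fit 0.461% of all genes had a higher and 0.346% a lower response. For Pmepa1 the difference was 0.16 (95% interval -0.10 to 0.41, adjusted p = 0.773), and it was -0.022 (adjusted p = 0.958) with that culture left out.

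**Figure D3:**
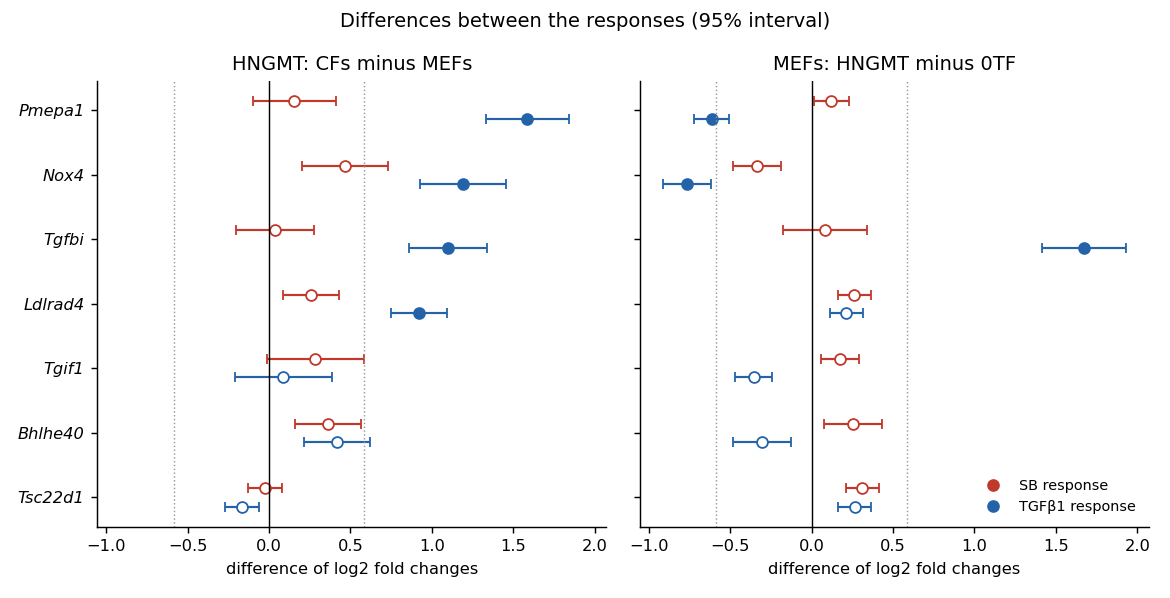
Difference of log2 fold changes (horizontal axis) between CFs and MEFs with HNGMT, on the left, and between HNGMT and 0TF MEFs, on the right, for the SB and TGFβ1 responses, with 95% intervals; filled points passed both thresholds and dotted lines mark a fold of 1.5. The TGFβ1 response of Tgfbi differed by 1.10 on the left and by 1.67 on the right.

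TGFβ1 and SB were also set against each other within each background. In CFs 5 of the 7 genes were higher with TGFβ1 than with SB, against 4.55% of all genes, and none was lower, against 3.31%. Tgif1 had 0.27 (adjusted p = 0.402) in this comparison. Leaving out CF HNGMT+SB replicate 3 brought it to 0.49 (adjusted p = 9.74e-05) and the count to 6 of 7, against 7.15% of all genes, and weighting the arrays gave 0.44 (adjusted p = 0.000219). In HNGMT MEFs 4 were higher (Pmepa1, Nox4, Ldlrad4 and Bhlhe40), against 3.09% of all genes, and none was lower, against 4.27%. In 0TF MEFs 5 were higher and Tgfbi was lower, against 5.42% and 6.97% of all genes. Pmepa1 had the highest log2 fold change among the 7 in CFs, at 2.21 (standard error 0.13), and in 0TF MEFs, at 1.52 (standard error 0.04). In HNGMT MEFs Bhlhe40 had the highest, at 0.96 (standard error 0.06).

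The order of the group means within a cell type split the 7 genes. Pmepa1, Nox4 and Bhlhe40 had both TGFβ1 groups of MEFs at the top and both SB groups at the bottom, and the DMSO groups in between. For Nox4 the HNGMT and 0TF DMSO groups overlapped, and for Pmepa1 neighbouring groups were apart by as little as 0.01. Tgif1 had TGFβ1 above DMSO above SB within each MEF background, but HNGMT+SB, at 10.99 ± 0.02, was above 0TF+DMSO, at 10.57 ± 0.02 (SD, n = 3 each). Ldlrad4 was highest in both DMSO groups and HNGMT+TGFβ1, which overlapped. Tgfbi was highest in 0TF+DMSO and lowest in 0TF+TGFβ1. The span between the highest and lowest MEF group mean was 0.29 for Tsc22d1 and 0.89 to 1.62 for the other genes.

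Over all 27 arrays, after each cell type's mean was subtracted, Pmepa1 ran closely with Nox4 (Pearson r = 0.92), Ldlrad4 (r = 0.91) and Bhlhe40 (r = 0.87), and Tgif1 ran with Bhlhe40 (r = 0.80). Tgfbi had r between -0.38 and 0.34 with the other genes. These arrays share 9 groups and the same treatments, so the correlations describe the groups. Among 5405 other genes with an SD of at least 0.2, those most like Pmepa1 were Mfsd2a (r = 0.954), Kdelr3 (r = 0.941) and Angptl7 (r = 0.937). Nox4 was most like Pdia5 (r = 0.960), Ptprz1 (r = 0.937) and Itga5 (r = 0.929), and Ldlrad4 most like Myo7a (r = 0.931), Col12a1 (r = 0.908) and Ak5 (r = 0.906). The profiles nearest to Bhlhe40 were Rnf19b (r = 0.953), Ubtd1 (r = 0.949) and Sprr3 (r = 0.943).
Tgif1 was most like Kctd5 (r = 0.979), Inhba (r = 0.976), which encodes an activin subunit, and Wsb2 (r = 0.973). In CF HNGMT+SB replicate 3, Inhba was at 12.31, against 11.22 and 11.16 in the other SB cultures, and Tgif1 was likewise highest there among the CF cultures. Tgfbi was most like Scube3 (r = 0.950), the retinoic acid receptor gene Rara (r = 0.933) and Ephb3 (r = 0.930). Scube3 likewise had a log2 fold change with TGFβ1 of 1.11 in CFs (adjusted p = 0.000932) and -1.21 in 0TF MEFs (adjusted p = 1.21e-12). For Tsc22d1, whose SD was 0.09, the nearest were C1qtnf3 (r = 0.748), Fxyd5 (r = 0.742) and Rasal2 (r = 0.693).

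The promoters of Nox4, Tgfbi and Tgif1 are shown because these genes had 3 different TGFβ1 patterns across the backgrounds. The windows lie around a RefSeq start site in GRCm38.p6, mostly upstream of it, and capitals mark the Smad box CAGAC on either strand, so that GTCTG is its other strand. Nox4 lies at chr7:87246399-87246698 on the + strand, Tgfbi at chr13:56609336-56609635 on the + strand, and the Tgif1 window with the most Smad boxes of its 5 at chr17:70851685-70851984 on the - strand.
Nox4: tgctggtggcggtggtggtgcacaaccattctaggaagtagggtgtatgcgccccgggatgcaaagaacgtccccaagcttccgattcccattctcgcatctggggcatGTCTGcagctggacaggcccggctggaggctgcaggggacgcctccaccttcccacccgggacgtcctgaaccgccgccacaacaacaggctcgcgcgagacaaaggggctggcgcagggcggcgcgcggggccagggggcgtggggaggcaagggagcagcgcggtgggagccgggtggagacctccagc
Tgfbi: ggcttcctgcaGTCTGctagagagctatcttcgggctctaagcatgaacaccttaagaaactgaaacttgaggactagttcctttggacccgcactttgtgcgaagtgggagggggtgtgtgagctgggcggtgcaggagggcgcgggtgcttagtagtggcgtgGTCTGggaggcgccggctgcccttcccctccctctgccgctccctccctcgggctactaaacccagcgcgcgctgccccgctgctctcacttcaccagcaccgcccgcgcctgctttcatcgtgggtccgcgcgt
Tgif1: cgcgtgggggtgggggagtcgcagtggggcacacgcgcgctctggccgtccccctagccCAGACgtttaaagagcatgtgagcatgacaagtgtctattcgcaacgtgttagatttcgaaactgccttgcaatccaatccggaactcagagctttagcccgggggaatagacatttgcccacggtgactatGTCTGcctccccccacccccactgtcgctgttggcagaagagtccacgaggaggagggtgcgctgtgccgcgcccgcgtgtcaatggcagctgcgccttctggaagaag
The Nox4 window held 1 Smad box and the Tgfbi and printed Tgif1 windows 2 each. Because the Tgif1 window was picked for its Smad boxes, its count cannot be set against those of Nox4 and Tgfbi. Of the 5 Tgif1 windows, 3 held a Smad box. The Tsc22d1 windows held at most 1, in 4 of 5 windows. Of all 32851 windows in the table, 49.6% held the Smad box. The GC-rich Smad motif GGCGC, also searched on both strands with overlapping matches counted, was found 3 times in the Nox4 window, 4 times in the Tgfbi window and 2 times in the Tgif1 window, and 36.9% of all windows held it. The AP-1 motif TGANTCA, in 7.81% of all windows, and the E-box CACGTG, in 7.15%, had no match in the printed windows. The TGIF motif TGTCA, in 45.4% of all windows, had no match in those of Nox4 and Tgfbi and 2 in the Tgif1 window. Such matches describe letters and not binding.

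Other known TGFβ targets were counted the same way from a list of 71, of which 68 were measured. In CFs TGFβ1 raised 21 of them, against 3.11% of all genes, and lowered 2, against 2.20%. Their median log2 fold change was 0.27, beside 0.00 over all genes. Without CF HNGMT+SB replicate 3 in the fit, 31 rose and 10 fell, against 4.97% and 5.8% of all genes. Ltbp2, a microfibril protein, rose by 1.86 (adjusted p = 0.00552), Adamtsl2, a secreted protein of the matrix, by 1.85 (adjusted p = 6.57e-05) and Postn, which encodes periostin, by 1.47 (adjusted p = 0.0209). The genes that fell were Snai2, a repressor of epithelial genes (-0.61), and Bambi, a decoy receptor (-0.39). In HNGMT MEFs 9 rose, against 2.23% of all genes, and 9 fell, against 3.54%, with a median of 0.08, beside 0.02 over all genes. Prg4, which encodes lubricin, rose by 1.60, Pdgfb, a growth factor, by 1.57 and Has2, a hyaluronan synthase, by 1.31. The lowest values were those of Comp, a cartilage matrix protein (-2.31), the protease gene Adamts1 (-1.60) and Id2, an inhibitor of helix-loop-helix factors (-1.43). In 0TF MEFs 16 rose, against 4.21% of all genes, and 11 fell, against 6.19%, with a median of 0.26, beside 0.05 over all genes. The contractile gene Cnn1 rose by 2.99, Prg4 by 2.38 and Ptgs2, the inducible cyclooxygenase gene, by 1.67, while Comp (-4.62), Id2 (-2.24) and Id1 (-1.04) were lowest.

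SB lowered 2 of these 68 genes in CFs, against 0.196% of all genes, and raised none, against 0.0451%. They were Adamtsl2, with -1.46 (adjusted p = 0.0045), and Skil, which encodes the Smad corepressor SnoN, with -0.57 (adjusted p = 0.0133). Without CF HNGMT+SB replicate 3, 12 fell, against 1.03% of all genes, and none rose, against 0.858%. In HNGMT MEFs 9 fell, against 0.431% of all genes, and none rose, against 0.391%, with a median of -0.16, and Prg4 (-1.57), Ltbp2 (-1.38) and Ptgs2 (-1.27) had the lowest values. Adamtsl2, Itgb5, Col5a2 and Lox were among these 9 and among the 12 in CFs. The paper had already listed them as lowered by SB in both cell types, from the same arrays. The SB counts of this list are therefore not independent of the earlier result. In 0TF MEFs 11 fell, against 1.13% of all genes, and 2 rose, against 1.26%, with a median of -0.17. Ccn2, known as connective tissue growth factor, had -1.84, the collagen receptor gene Itga11 -1.80 and Tnc, which encodes tenascin C, -1.51. Has2 rose by 1.37 and the angiogenic factor Vegfa by 0.96.

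**Figure D4:**
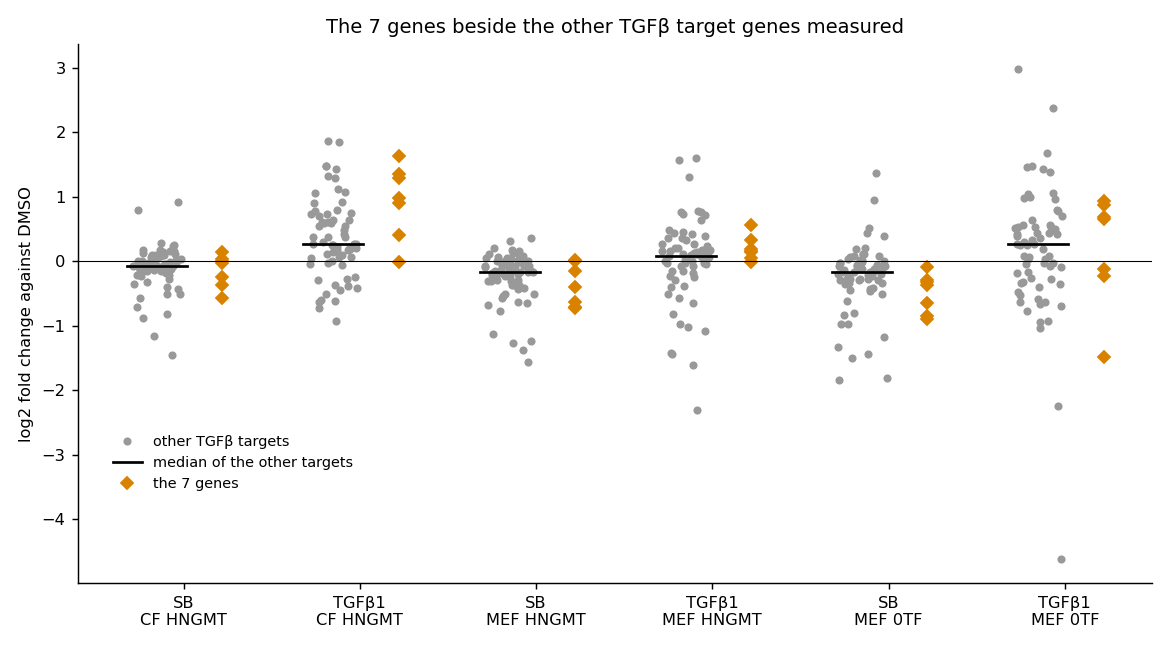
Log2 fold change against DMSO (vertical axis) of the other TGFβ target genes measured (grey dots, black line at their median) and of the 7 genes (orange diamonds) in the 6 responses along the horizontal axis. With TGFβ1 in CFs the median of the 68 other targets was 0.27 and that of the 7 genes 0.98.

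All 44 listed components of the pathway were measured, and this list too was chosen with earlier results of these data known. In CFs TGFβ1 raised 5, against 3.11% of all genes, and lowered 3, against 2.20%, and the median of the 44 was -0.04. Without CF HNGMT+SB replicate 3, 6 rose and 7 fell, against 4.97% and 5.8% of all genes. Ltbp4 (1.39) and Ltbp1 (0.96), which bind latent TGFβ, and Fst, which binds activin, rose, and the co-receptor gene Tgfbr3 (-1.62), the integrin gene Itgb8 (-0.64) and Lrrc32 (-0.59), which anchors latent TGFβ to cells, fell. In HNGMT MEFs none rose, against 2.23% of all genes, and Tgfbr3 (-1.27), Itgb8 (-1.12) and Fst (-1.09) fell, against 3.54%, with a median of 0.03. In 0TF MEFs 4 rose, against 4.21% of all genes, with Lrrc32 (1.85), Inhbb (1.02) and Inhba (1.02) highest. Another 5 fell, against 6.19%, with Fst (-1.03), Tgfb2 (-1.01) and Smad9 (-0.98) lowest, and the median was 0.02. With SB none was called in CFs by limma, and without CF HNGMT+SB replicate 3 Lrrc32 and Tgfbr3 rose and Fst, Ltbp4 and Thbs2 fell. With SB in MEFs, where the shares of all genes were those given for the other targets, Tgfbr3 rose in HNGMT MEFs (0.71), and in 0TF MEFs the receptor gene Acvr1c (1.12) and the ligand gene Tgfb2 (0.62) rose and Inhba (-0.75) fell. The paper had already listed Tgfbr3 as raised by SB in both cell types, from the same arrays. Fst, like Tgfbi in CFs and 0TF MEFs, rose with TGFβ1 in CFs and fell in both MEF backgrounds.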

How the data were processed

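Levels were read from 27 Affymetrix Mouse Gene ST arrays, 18 of MEFs and 9 of CFs. The values of 35556 probe sets were used as deposited, as log2 intensities that the authors had already processed. The methods and labels name MAS5 and PartekGS. Summarization and normalization settings and a genome build are not given in the sources used here, and the CF labels carry protocol text written for MEFs. Values ran from 4.22 to 14.64. Probe sets with 1 symbol (21789) were kept, those with several (1621) or none (12146) were not, and the probe set of highest mean stood for a gene.

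Groups were fitted in limma 3.58.1 (R 4.3.3; lmFit, eBayes), separately for MEFs (12 residual degrees of freedom) and CFs (6). All 27 arrays gave CF minus MEF differences (18 degrees of freedom). Adjusted p-values (Benjamini-Hochberg, two-sided) covered all 19938 genes in each of 14 comparisons. For TGFβ1 against DMSO in CFs, all 3 same-numbered pairs deviated together (r = 0.651, 0.555 and 0.117), a pairing read from the data and not from the labels, and a replicate block changed no call of a member there. The steps were tested on simulated data. Intervals are 95%. The array number limits precision.

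Members and lists were chosen with earlier results of these data known. Named were all 7 members, up to 3 called list genes at each end of each response, the 3 genes of highest correlation with each member, and the delivered factors. Scube3 and Inhba values were picked after these were seen. The 3 listed targets without a value were not analysed here. Promoter windows came from RefSeq (GRCm38.p6) for 4 members, and the Tsc22d1 windows were left unprinted. Alternatives varied the arrays fitted, a replicate block, array weights, how variances were modelled, the removal of dim genes, normalization, centring, probe set summary, fold threshold and each culture. Python 3.11.15 and matplotlib 3.10.9 drew the figures.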

Additional observations from a re-analysis of the deposited data

Results flagged for a closer look

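Differences between the responses of 2 backgrounds passed an adjusted p under 0.05 (limma interaction term) for several genes. No fold threshold was used for this flag, and the share of all genes passing it was not counted. The SB response differed between HNGMT and 0TF MEFs by -0.33 for Nox4, 0.26 for Ldlrad4 and 0.31 for Tsc22d1 on the log2 scale.

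For the TGFβ1 response, HNGMT minus 0TF MEFs gave 1.67 for Tgfbi, -0.77 for Nox4, -0.61 for Pmepa1, -0.36 for Tgif1, -0.30 for Bhlhe40, 0.27 for Tsc22d1 and 0.21 for Ldlrad4. The Tgfbi response itself was 0.19 in HNGMT MEFs, where it was not called (adjusted p = 0.103), and -1.48 in 0TF MEFs (adjusted p = 1.2e-10).

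CFs minus HNGMT MEFs gave TGFβ1 differences of 1.59 for Pmepa1, 1.19 for Nox4, 1.10 for Tgfbi, 0.92 for Ldlrad4, 0.42 for Bhlhe40 and -0.17 for Tsc22d1. Groups of 3 cultures were not tested for single cultures far from the rest.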

How the results depend on the processing

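Counts are of the 7 genes called per comparison, and log2 fold changes are of single genes. For SB in CFs the count was 0 and became 2 with all 27 arrays in one fit and 2 with array weights. For HNGMT against 0TF MEFs in DMSO it was 1 and became 2 with array weights and 4 with no fold threshold. The count for the SB response in CFs against MEFs was 0 and became 1 with array weights. The count for TGFβ1 in HNGMT MEFs was 0 and became 1 with array medians made equal and 4 with no fold threshold. With no fold threshold, SB in 0TF MEFs gave 6 in place of 3, SB in HNGMT MEFs 5 in place of 3, the SB response of HNGMT against 0TF 3 in place of 0, and the TGFβ1 response of HNGMT against 0TF 7 in place of 3. The share of all genes without the fold threshold was not counted for any of these comparisons. Small changes pass that way, such as Tsc22d1 with TGFβ1 in 0TF MEFs at -0.12. For all 27 arrays in one fit, array weights and equal array medians, the share of all genes called was not counted either. Whether those fits called more of all genes cannot be read from the counts. Leaving out each culture in turn gave 0 to 2 genes for SB in CFs and 0 to 1 for the SB response in CFs against MEFs, both highest without CF HNGMT+SB replicate 3. It gave 0 to 1 for TGFβ1 in HNGMT MEFs, highest without MEF HNGMT+TGFβ1 replicate 1, with no share of all genes counted. The other 354 values of the counts stayed within 1.5 times. The cause was not tested.

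Single calls changed too. With array weights Pmepa1 lost its call for the TGFβ1 response of HNGMT against 0TF MEFs (-0.575), and Tgif1 was called for TGFβ1 against DMSO in CFs with array weights or with all 27 arrays in one fit (0.41 each) and for TGFβ1 against SB with array weights (0.44). Uncalled changes near 0 turned sign. With array weights, Tgfbi with SB in HNGMT MEFs had 0.04, Tgif1 and Tsc22d1 with SB in CFs -0.030 and 0.025, and the SB response in CFs against MEFs -0.033 for Pmepa1 and -0.0041 for Tgfbi. With quantile normalization, Tgfbi with SB in HNGMT MEFs had 0.0069 and Tsc22d1 with SB in CFs 0.0011. With array medians made equal, Ldlrad4 with TGFβ1 in HNGMT MEFs had 0.012, Tsc22d1 in CFs 0.018 with TGFβ1 against DMSO and 0.019 against SB, and Nox4 in HNGMT against 0TF MEFs -0.0086. That scaling moved the median of all genes to 0.127 for TGFβ1 against DMSO and 0.147 for TGFβ1 against SB in 0TF MEFs, against 0.045 and 0.055 as deposited. Leaving out single cultures, HNGMT against 0TF MEFs gave -0.022 to 0.026 for Ldlrad4 and -0.018 to 0.079 for Nox4. In HNGMT MEFs, Tgfbi with SB had -0.030 to 0.049 and Ldlrad4 with TGFβ1 -0.030 to 0.0056. In CFs, SB gave -0.131 to 0.021 for Bhlhe40, -0.045 to 0.039 for Tsc22d1 and -0.076 to 0.275 for Tgif1, and TGFβ1 against SB -0.058 to 0.027 for Tsc22d1. The SB response in CFs against MEFs ran over -0.010 to 0.071 for Tgfbi, -0.022 to 0.260 for Pmepa1 and -0.067 to 0.018 for Tsc22d1.

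In the main fits, that of TGFβ1 against DMSO in CFs included, cultures with the same replicate number were not treated as pairs. Same-numbered arrays correlated above 0.1 in 9 of 45 MEF pairs and 4 of 9 CF pairs, and 7 of 18 MEF and 5 of 9 CF arrays correlated best with their own number. Most of those MEF pairs lay within HNGMT MEFs. Replicates 1, 2 and 3 there had r = 0.585, 0.521 and -0.007 for DMSO with TGFβ1. For DMSO with SB they had 0.456, 0.03 and 0.328, so a pairing in HNGMT MEFs cannot be set aside. With the replicate number as a block, the counts were 3, 5 and 0 for SB in 0TF MEFs, TGFβ1 in 0TF MEFs and SB in CFs. For TGFβ1 in CFs the count was 5, where 2.90% of all genes rose and 2.05% fell. No count moved by over 1.5 times, and shares of all genes were not counted for the other comparisons with the block. The block also changed no call of a member for SB or TGFβ1 in HNGMT MEFs. In a fit of the 6 CF arrays with TGFβ1 or DMSO, chosen after seeing the data, 6 genes rose with the block and 6 without it. Tgif1 was among them both times. Of all genes, 5.04% rose and 6.15% fell with the block, and 4.88% rose and 5.66% fell without it. Signal limits are unknown, since background values were not used here.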
